A study of Mus musculus with 59 samples.

Results

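The genes described here carry out or control fatty acid synthesis from sugar in the liver: Srebf1, Acly, Me1, Acaca, Acacb, Fasn, Elovl6, Scd1, Thrsp and Pnpla3. They were chosen by name, as the enzymes of the pathway, its sterol-regulated activator and genes known to be induced with it, and not by a threshold on measured values. All 10 were on the array, as 10 of 18193 genes tested and 23 of 45101 probe sets, and none was lost to a filter. A probe set is the group of short probes that reads 1 transcript region. Acly had 6 probe sets, Elovl6 and Thrsp 3 each, Acaca, Acacb, Scd1 and Me1 2 each, and Srebf1, Fasn and Pnpla3 1 each.

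In the fed liver, citrate leaves the mitochondrion and is split by ATP citrate lyase (Acly) to acetyl-CoA, which acetyl-CoA carboxylase (Acaca in the cytosol, Acacb at the mitochondrial surface) turns into malonyl-CoA. Fatty acid synthase (Fasn) builds palmitate from these units with NADPH, part of which comes from malic enzyme (Me1), and Elovl6 lengthens the product before Scd1 introduces a double bond. Srebf1 encodes SREBP-1, which insulin activates and which binds the promoters of most of these enzymes together with NF-Y, a factor that reads the sequence CCAAT. Thrsp (Spot 14) is a small nuclear and cytosolic protein induced by thyroid hormone and carbohydrate, and Pnpla3 is a lipid droplet protein whose gene is a target of SREBP-1c. The E2F family, which the study altered, is best known for controlling genes of DNA replication.

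Livers of 4-week-old (1-month-old) mice were profiled on Affymetrix arrays in 4 genotypes: wildtype (wt), an E2f3a knockout (3aKO), an E2f1 knock-in (1KI) and an E2f3b knock-in (3bKI). Their background was mixed, drawn from the strains FVB/NT, 129S1/Svlmj and C57BL/6NT, and no treatment is labelled for any group. The sources used here give neither the locus of the knock-ins nor the sex, feeding state or hour of death of the animals. Normalization 1 holds 12 wt, 10 3aKO and 10 1KI arrays, and normalization 2 holds the same 22 wt and 3aKO arrays with 5 3bKI arrays, so no test sets 1KI against 3bKI. The labels do not say that each array is a separate animal, so p-values measure the spread between arrays.

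The promoters of the 4 genes below are shown because their transcripts were all lower in 3bKI livers at the probe set used for the gene. Each sequence is the 250 bases before an annotated start, 5′ to 3′ on the gene's strand, from RefSeq (GRCm38.p6). For Acaca that start lies inside the gene, whose span is chr11:84129635-84401651, and not at its 5′ end. Capitals mark CCAAT or its complement ATTGG. Thrsp lies on the minus strand at chr7:97417551-97417800, Elovl6 on the plus strand at chr3:129532136-129532385, Acaca on the plus strand at chr11:84195188-84195437, and Acly on the minus strand at chr11:100528001-100528250.
Thrsp: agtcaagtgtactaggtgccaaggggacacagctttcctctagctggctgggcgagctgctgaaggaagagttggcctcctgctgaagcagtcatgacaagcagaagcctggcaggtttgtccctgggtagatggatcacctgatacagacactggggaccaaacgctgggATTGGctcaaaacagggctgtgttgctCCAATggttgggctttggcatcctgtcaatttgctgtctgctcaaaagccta
Elovl6: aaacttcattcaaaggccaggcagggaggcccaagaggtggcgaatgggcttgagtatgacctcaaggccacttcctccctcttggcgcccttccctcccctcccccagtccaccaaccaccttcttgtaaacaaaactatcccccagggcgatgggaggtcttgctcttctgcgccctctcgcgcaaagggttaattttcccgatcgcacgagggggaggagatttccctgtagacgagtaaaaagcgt
Acaca: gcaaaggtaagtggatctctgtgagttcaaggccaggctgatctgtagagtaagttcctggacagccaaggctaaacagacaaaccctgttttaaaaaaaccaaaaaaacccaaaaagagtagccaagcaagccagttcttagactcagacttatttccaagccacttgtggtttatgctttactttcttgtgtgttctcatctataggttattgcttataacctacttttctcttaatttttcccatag
Acly: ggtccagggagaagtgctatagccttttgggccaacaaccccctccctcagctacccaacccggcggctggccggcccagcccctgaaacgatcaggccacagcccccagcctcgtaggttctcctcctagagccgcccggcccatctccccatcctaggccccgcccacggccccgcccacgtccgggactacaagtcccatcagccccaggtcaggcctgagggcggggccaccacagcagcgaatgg
The Thrsp promoter held CCAAT on both strands, at -79 to -75 and at -52 to -48 from the start. The Elovl6, Acaca and Acly windows did not hold it, but for Acaca only the inner start was searched. RefSeq windows were found for 9 of the 10 genes, in 12 entries, since Srebf1 and Me1 have several starts. Scd1 was not matched, and for Acacb and Fasn, as for Acaca, the only entry lies inside the gene's span. So do the Srebf1 entries and a second entry of Me1. CCAAT was found on either strand in 7 of the 12 entries and in 33.8% of 32851 promoters of the same length. The sterol regulatory element TCACNCCAC (in 1.05% of all promoters), the E-box CACGTG (6.02%) and the E2F forms GCGGGAA (3.82%) and GCGCGAA (1.28%) were found in 0 of the 12 entries. A match is a description of the letters in this window. At Fasn a CCAAT match on the plus strand (-62 to -58) overlaps one on the minus strand (-59 to -55).

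All values below are log2 expression values as deposited, where a difference of 1 is a factor of 2, and levels were not compared between probe sets. Hybridization controls, RNAs added before hybridization, lay at 11.0 or above in all 10 1KI arrays, all 5 3bKI arrays and 2 wt arrays (replicates 1 and 2), and at 10.5 or below in the other 10 wt and all 10 3aKO arrays. Poly-A controls, added to the RNA before labelling, averaged 13.8 in 3bKI and 9.04 in wt in normalization 2. They ran from 13.77 to 13.85 in 3bKI and reached at most 9.7 in wt and 9.21 in 3aKO. This difference and the 3bKI genotype cannot be told apart in any 3bKI result below. RNA integrity was read from Gapdh and Actb as the 3′ minus the 5′ signal, which was 0.28 to 0.36 in 3bKI, below the 0.48 to 0.65 of wt, and reached 1.75 in 1KI replicate 6. A sex index, the signal of the X-linked transcript Xist minus the mean of Y-linked transcripts, split the arrays. By its low values, 7 of 12 wt, 5 of 10 3aKO, 5 of 10 1KI and 3 of 5 3bKI arrays were taken as having Y-linked signal. Hepatocyte markers (8 of 10 listed genes measured) summed to between 17.1 and 17.2 in every array. E2f3 did not differ by test between 3aKO and wt (log2 change -0.25 ± 0.07 SE, limma adjusted p = 0.134), and E2f1 was at 6.39 ± 0.25 (SD, n = 10) in 1KI and 6.63 ± 0.32 (n = 12) in wt. The sources used here do not say where these probe sets lie relative to the altered alleles, so they do not check the labels. In 3bKI, E2f3 was lower than in wt by the test (-0.24 ± 0.09, adjusted p = 0.0491).

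**Figure D1:**
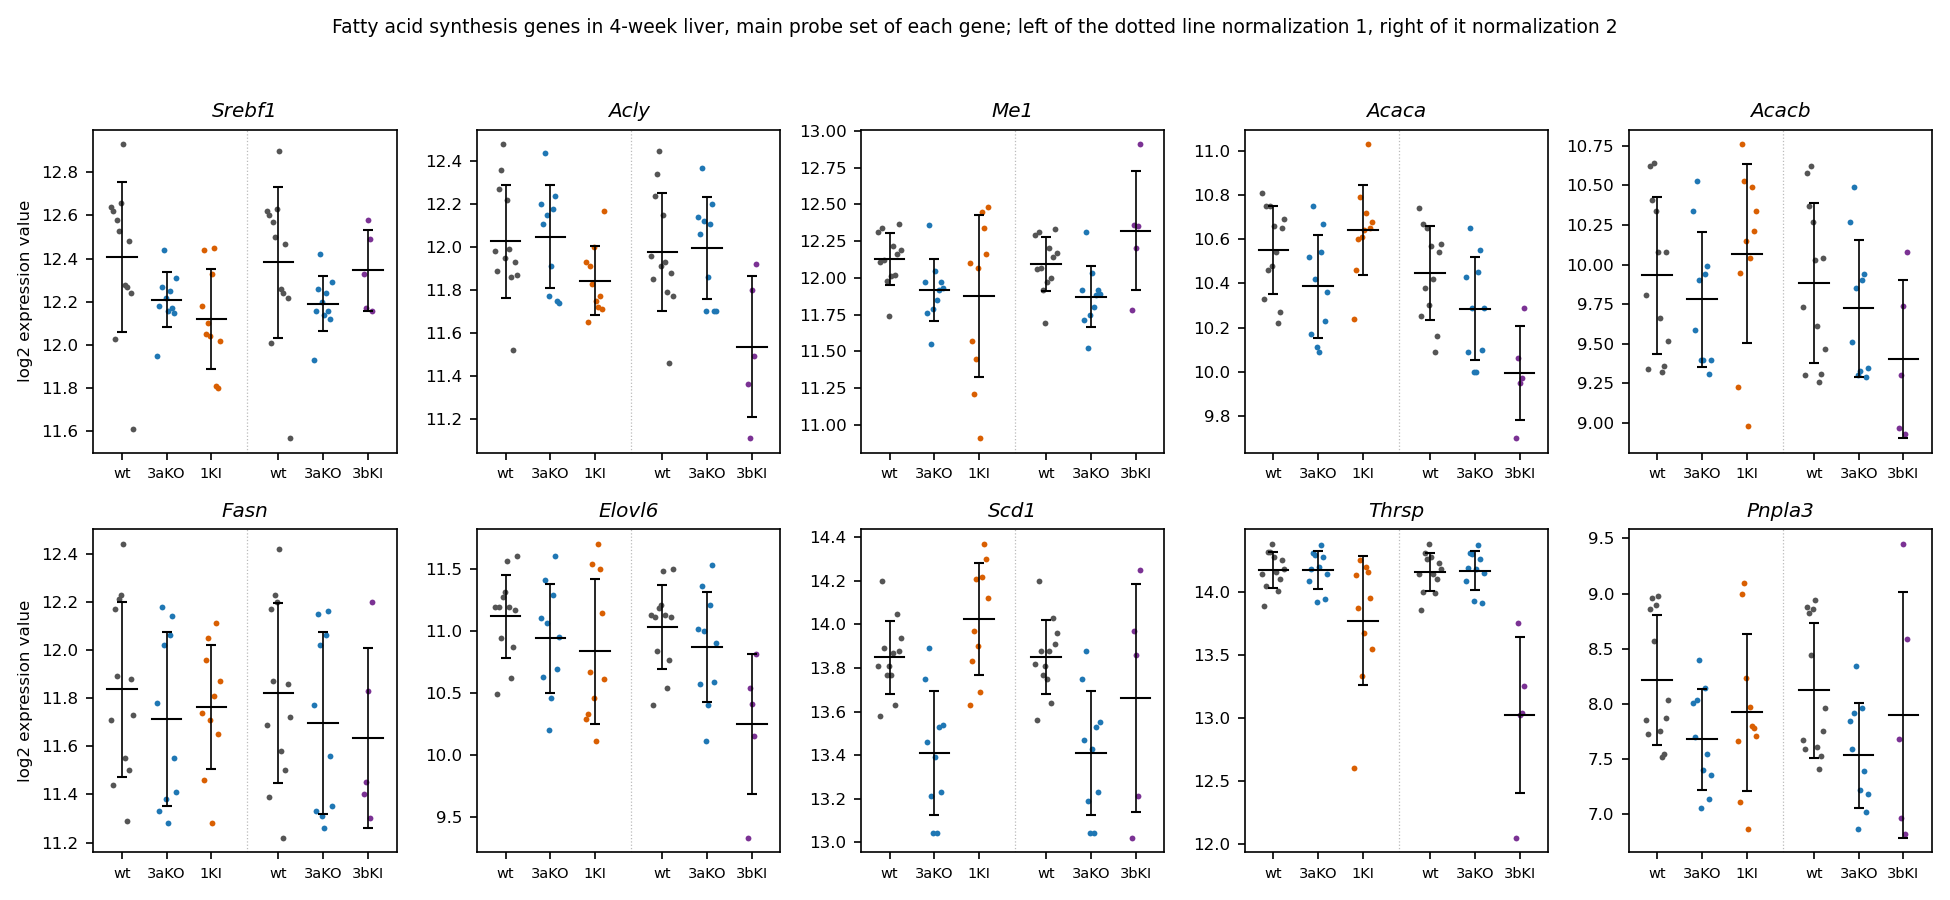
log2 expression value (vertical axis) of the main probe set of each gene in every array (points), with the mean (line) and SD (bar) of each genotype; normalization 1 is left of the dotted line and normalization 2 right of it. Thrsp in the 5 3bKI arrays, at 12.05 to 13.75, lies below every wt array, and Scd1 in 3aKO has a mean of 13.41 against 13.85 in wt.

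Few of the genes passed the test in 3aKO livers. Scd1, the desaturase that makes oleate and palmitoleate, was lower in 3aKO than in wt, and the other 9 genes did not pass the test. At the Scd1 probe set with the highest signal the 12 wt arrays lay between 13.58 and 14.20 with a median of 13.84, and the 10 3aKO arrays between 13.04 and 13.89 with a median of 13.43. The groups overlapped, but 8 of 10 3aKO arrays lay below every wt array. The log2 change was -0.44 ± 0.10 SE (0.736 of the wt level, 95% interval -0.64 to -0.24, limma adjusted p = 0.0401). Of all genes 0.110% were called higher and 0.0660% lower in this comparison, and among the members 0 were higher and 1 was lower, with 2 at an unadjusted p under 0.05. The median change of the 10 genes was -0.17, against -0.01 over all genes tested. Pnpla3 had the largest negative value of the members (-0.54 ± 0.24, adjusted p = 0.363). The Scd1 call was narrow: without the 2 wt arrays of the higher control level the change was -0.47 with adjusted p = 0.0605, and it missed the threshold in 13 of 22 fits that left out 1 array.

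The second Scd1 probe set, 1415965_at, differed more but did not pass over all probe sets, of which 0.286% were called. It lay between 10.73 and 12.15 in wt, with a median of 11.24, and between 9.52 and 11.22 in 3aKO, with a median of 10.26. All 10 3aKO arrays were below the wt mean, and the change was -1.07 ± 0.30 (adjusted p = 0.130). Among the arrays of the lower control level alone it was -1.10 (adjusted p = 0.0295, 10 wt arrays). In normalization 2, where the same arrays were scaled anew, the Scd1 means were 13.85 ± 0.17 (SD, n = 12) in wt and 13.41 ± 0.28 (n = 10) in 3aKO. The test did not pass there (-0.44, adjusted p = 0.142), and over all alternatives the call was kept in 10 of 18.

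Scd1 was higher in 1KI than in 3aKO at both probe sets. Its 1KI arrays ran from 13.63 to 14.37 with a median of 14.05, so 7 of 10 exceeded every 3aKO array. The change was 0.62 ± 0.10 (1.53 times the 3aKO level, limma adjusted p = 1.83e-05), and 1.34 ± 0.31 at 1415965_at (adjusted p = 0.00122). Without 1KI replicate 6, whose 3′ minus 5′ difference was the largest, the main probe set gave 0.65. Against wt, Scd1 in 1KI did not pass (0.17 ± 0.10, adjusted p = 0.186). All 1KI arrays had the higher and all 3aKO arrays the lower hybridization control level, so these 2 genotypes can be set within a level only through the wt arrays; with the level as a block the Scd1 change was 0.80 (adjusted p = 0.0297). Acaca showed the same direction, with 1KI above 3aKO by 0.26 ± 0.09 (adjusted p = 0.0309), but 0.23 with the level as a block (adjusted p = 0.595). Among all genes 11.9% were called higher and 19.0% lower here, beside 2 members higher and 1 lower, and 31.4% of probe sets were called in either direction. The share of members called is thus near that of all genes. Macrophage markers were lower in the same comparison, with 0 of 8 higher and 4 of 8 lower by the test (Vsig4 -0.53, Csf1r -0.35, Marco -0.90 and Timd4 -0.64). Their summed level ran from 12.4 to 13.7 in 1KI and from 12.8 to 13.7 in 3aKO, and their part in the results for Scd1, Acaca and Thrsp was not tested.

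Srebf1 and Thrsp were lower in 1KI than in wt. Srebf1, the activator of the pathway, lay between 11.61 and 12.93 in wt, with a median of 12.51, and between 11.80 and 12.45 in 1KI, with a median of 12.08. The ranges overlapped in full. Its change was -0.28 ± 0.11 (limma adjusted p = 0.0427), and 13 of 22 fits without 1 array lost the call, as did the fit without the 2 wt arrays of the higher control level (-0.24, adjusted p = 0.108). Thrsp lay between 13.89 and 14.38 in wt, with a median of 14.17, and between 12.60 and 14.25 in 1KI, with a median of 13.91. Of the 1KI arrays 5 of 10 were below every wt array, and the change was -0.40 ± 0.13 (0.757 of the wt level, adjusted p = 0.0159). Without 1KI replicate 6 it was -0.39, and without the 2 wt arrays of the higher level -0.43. Within the higher level, where only 2 wt arrays stand against 10 1KI arrays, Thrsp differed by -0.24 (adjusted p = 0.769) and Srebf1 by -0.51 (adjusted p = 0.140).

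None of the enzymes Acly, Me1, Acaca, Acacb, Fasn, Elovl6 and Scd1 passed the test at their main probe sets between 1KI and wt. Some intervals were wide: Elovl6 differed by -0.28 (95% interval -0.65 to 0.09), Me1 by -0.26 (-0.54 to 0.03) and Acly by -0.18 (-0.37 to 0.01). Acaca, Acacb and Scd1 were positive in sign. Fasn had 11.76 ± 0.26 (SD, n = 10) in 1KI and 11.84 ± 0.36 (n = 12) in wt, a difference of -0.07 with a 95% interval of -0.35 to 0.20. The count of 0 members higher and 2 lower stands beside 10.2% of all genes higher and 17.5% lower, and 29.2% of probe sets called. Me1 spread widely in 1KI, from 10.91 to 12.48, while wt lay between 11.74 and 12.37. Among secondary probe sets, Me1 1416632_at was lower (-0.28 ± 0.10), Elovl6 1442656_at higher (0.69 ± 0.24) and Thrsp 1444166_at higher (0.54 ± 0.16), the last 2 opposite in sign to the main probe set of their gene. Thrsp 1422973_a_at was lower by the largest amount (-0.80 ± 0.20, adjusted p = 0.00235).

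**Figure D2:**
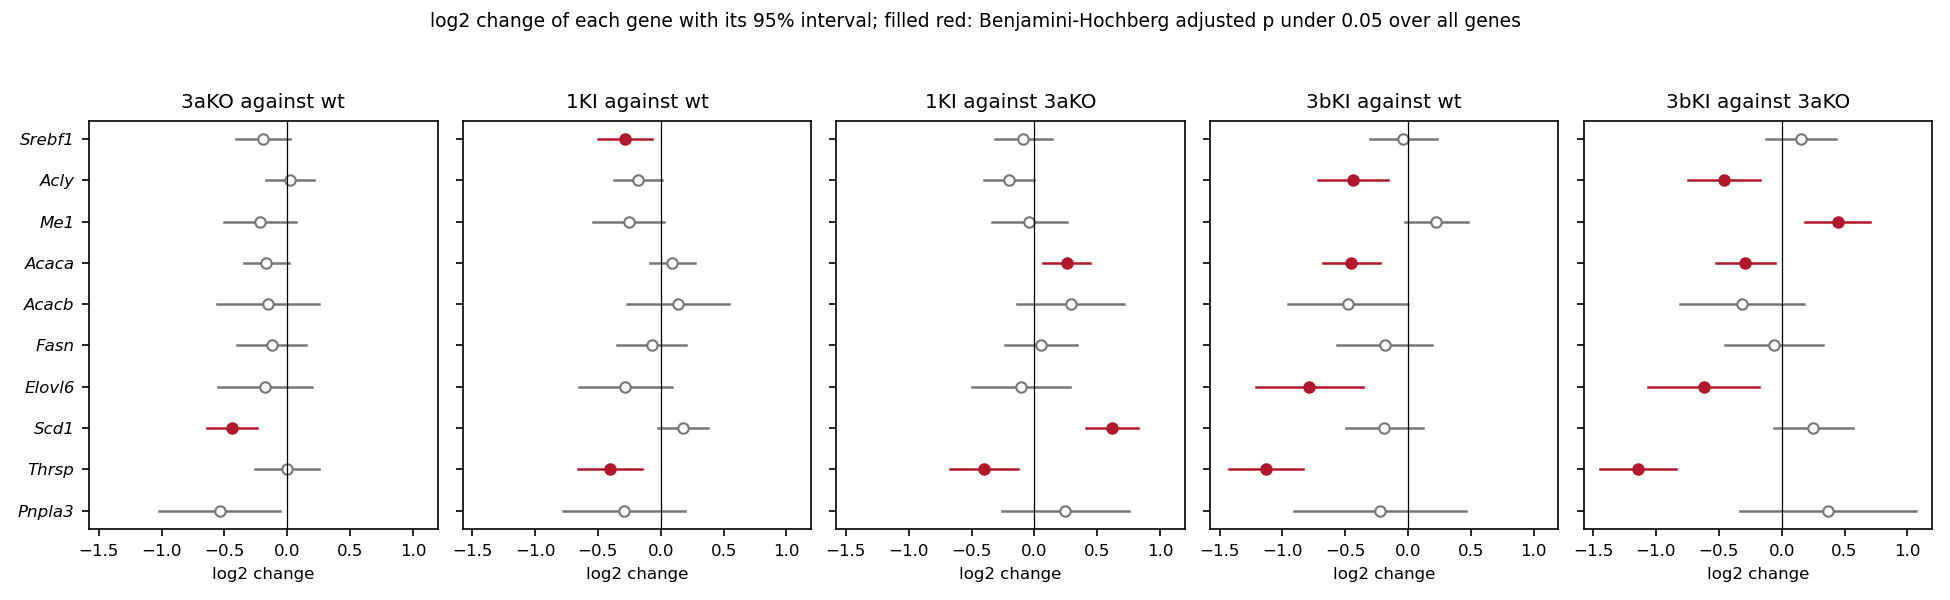
log2 change (horizontal axis) of each gene with its 95% interval in the 5 comparisons; filled red points had an adjusted p under 0.05 over all 18193 genes. Thrsp is at -1.13 in 3bKI against wt, and Fasn crosses 0 in all 5 panels.

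The 3bKI livers showed the most changes: Thrsp, Elovl6, Acaca and Acly were lower than in wt, while Fasn, Acacb, Scd1, Me1, Srebf1 and Pnpla3 did not pass. Beside 0 members higher and 4 lower, 13.4% of all genes were called higher and 15.9% lower. The median change of the members was -0.33, against 0.00 over all genes.

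Thrsp had the largest change. The 5 3bKI arrays, replicates 1 to 5, read 12.05, 13.75, 13.02, 13.04 and 13.25, and the wt arrays of normalization 2 read 13.86 to 14.38 with a median of 14.16. All 5 lay below every wt and every 3aKO array. The change was -1.13 ± 0.14 (0.456 of the wt level, 95% interval -1.43 to -0.84, limma adjusted p = 6.49e-07), and -1.15 ± 0.15 against 3aKO. Thrsp 1422973_a_at gave -1.50 ± 0.19, also with no overlap, and the dimmer 1444166_at gave 0.18 ± 0.17. Leaving out any 1 array kept the main change between -1.32 and -0.89. With the control level as a block it was -0.98 (adjusted p = 0.00716), a value that rests on the 2 wt arrays of the higher level. Within that level alone the change was again -0.98, and it did not pass. Those 2 wt arrays had poly-A controls of 9.7 and 9.6, against 13.77 to 13.85 in 3bKI, a difference that neither fit adjusts for. The fit with RNA integrity as a covariate gave -0.82 (adjusted p = 0.104), and the integrity ranges of 3bKI and wt do not overlap.

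Elovl6, the elongase that takes palmitate to stearate, read 9.33, 10.54, 10.41, 10.15 and 10.81 in the 3bKI arrays and 10.40 to 11.50 in wt. The groups overlapped, with 2 of 5 3bKI arrays below every wt array and all 5 below the wt mean. The change was -0.78 ± 0.21 (adjusted p = 0.00476) and -0.80 ± 0.21 at 1417403_at. Without 3bKI replicate 1, the lowest, Elovl6 changed by -0.56 against wt and by -0.39 against 3aKO, the latter with adjusted p = 0.154. With the control level as a block the difference from wt was -0.52 (adjusted p = 0.378). With RNA integrity as a covariate it was -0.05 and that from 3aKO 0.32, neither called.

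Acaca, the cytosolic carboxylase, read 9.70, 10.06, 9.95, 9.97 and 10.29 in 3bKI and 10.09 to 10.74 in wt. Here 4 of 5 arrays lay below every wt array, and the change was -0.45 ± 0.11 (adjusted p = 0.00243). The second Acaca probe set, 1427595_at, gave 0.08 ± 0.15. With the RNA integrity covariate Acaca differed by -0.10 (adjusted p = 0.863), and with the control level as a block by -0.50 (adjusted p = 0.0781). Its mitochondrial relative Acacb read 8.97, 9.30, 9.74, 8.93 and 10.08 in 3bKI and did not pass (-0.48 ± 0.23, adjusted p = 0.132).

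The probe sets of Acly disagreed. At 1439459_x_at, the brightest, the 3bKI arrays read 11.36, 11.11, 11.80, 11.49 and 11.92 and wt 11.46 to 12.45, a change of -0.44 ± 0.14 (adjusted p = 0.0140). At 1425326_at they read 10.31, 10.38, 10.81, 10.46 and 11.12 and wt 9.90 to 10.62, a change of 0.39 ± 0.14 in the other direction (adjusted p = 0.0389). The third bright probe set, 1451666_at, differed by -0.00 ± 0.12. An _x_at probe set has probes that may also bind other transcripts, so the lower Acly value rests on 1 probe set of that kind. It did not pass without 3bKI replicate 2 (-0.34, adjusted p = 0.0779), with the control level as a block (-0.37, adjusted p = 0.332) or with the RNA integrity covariate (-0.21, adjusted p = 0.756). Over all probe sets 27.8% were called in this comparison.

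**Figure D3:**
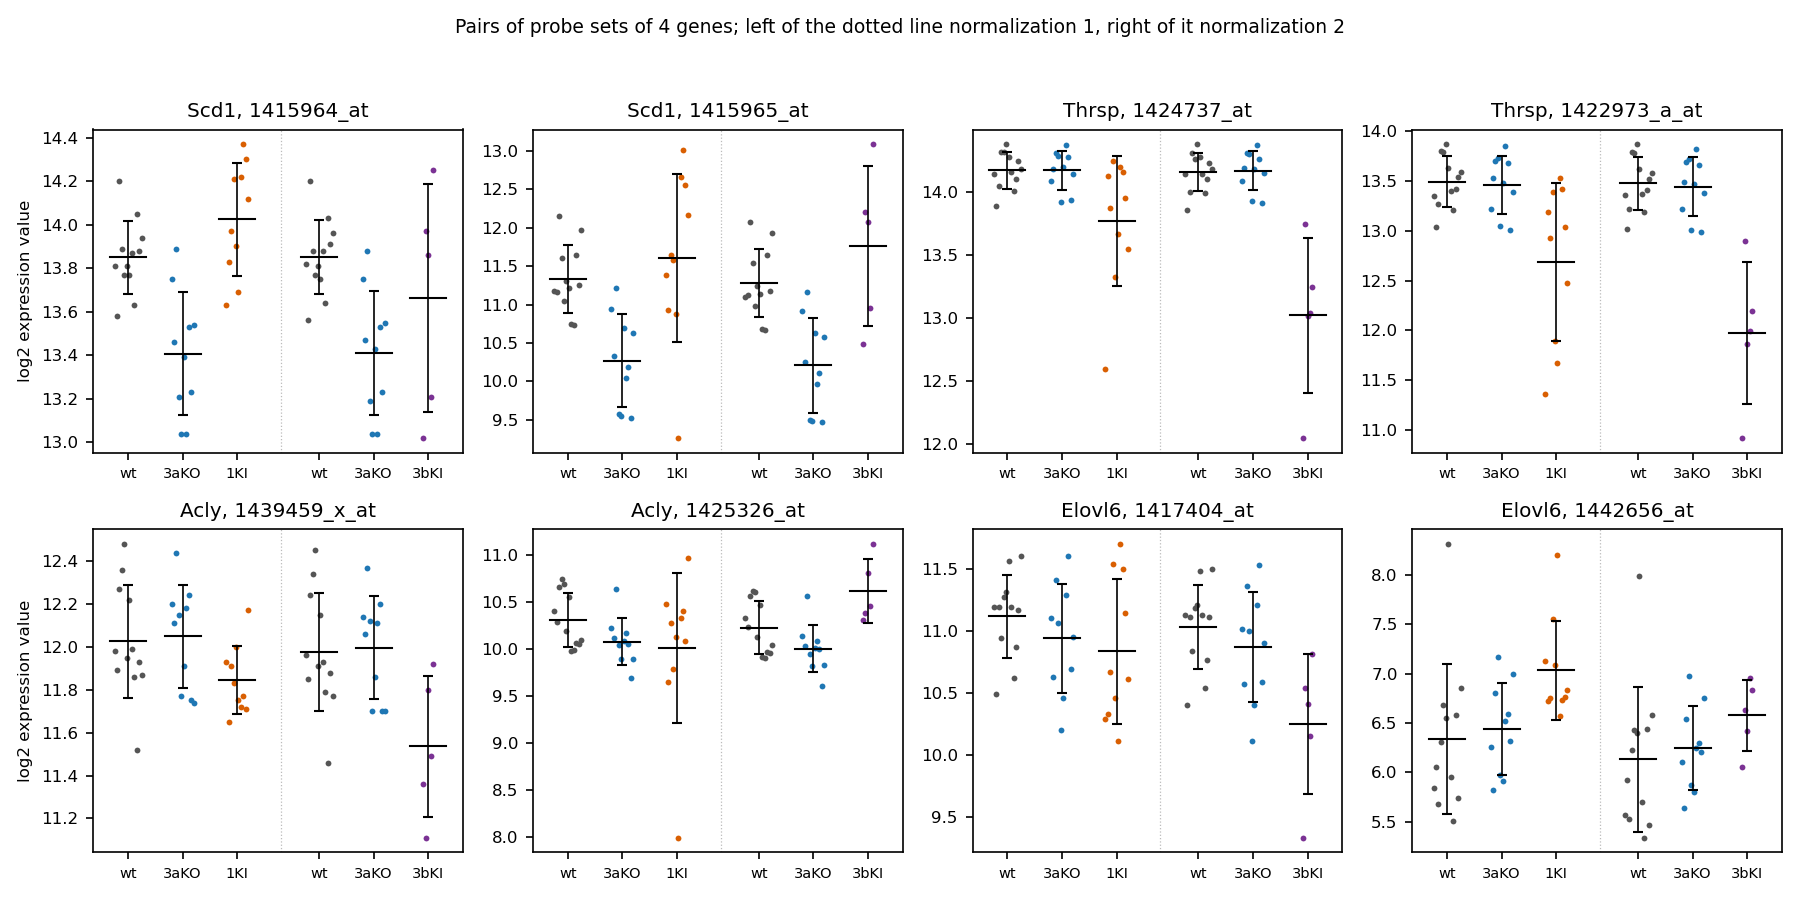
log2 expression value (vertical axis) of 2 probe sets each of Scd1, Thrsp, Acly and Elovl6 in every array (points), with mean and SD per genotype; the dotted line parts the normalizations. Both Scd1 means are lower in 3aKO than in wt and both Thrsp means lower in 3bKI, whereas Acly 1439459_x_at is lower and 1425326_at higher in 3bKI than in wt.

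Against 3aKO, the same 5 3bKI arrays gave Thrsp, Acly (-0.46 ± 0.14), Elovl6 (-0.62 ± 0.22) and Acaca (-0.29 ± 0.11, adjusted p = 0.0495) lower and Me1 higher. Me1, which supplies NADPH, read 11.78, 12.36, 12.20, 12.35 and 12.91 in 3bKI and 11.52 to 12.31 in 3aKO, with 3 of 5 arrays above every 3aKO array. Its change was 0.45 ± 0.13 (adjusted p = 0.00643), and 0.22 ± 0.12 against wt (adjusted p = 0.182). With the control level as a block the difference from 3aKO was 0.35 (adjusted p = 0.387). Scd1 did not pass at its main probe set (0.25 ± 0.15), but 1415965_at was higher by 1.55 ± 0.32 (adjusted p = 0.000384). Acaca lost its call in 10 of 15 fits that left out 1 array and kept it in 5 of 14 other alternatives. The comparison shares its 3bKI arrays with the one against wt, and 16.5% of all genes were higher, 17.7% lower and 31.5% of probe sets called.

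Genes that act with these enzymes had calls in both directions in 3bKI. Of 20 measured regulators of lipogenesis 6 were higher and 5 lower than in wt, where 13.4% of all genes were higher and 15.9% lower. Mlxipl, which encodes the carbohydrate-responsive factor ChREBP, was higher by 1.03 ± 0.15, with 3bKI arrays at 11.55 to 12.15 and wt at 10.27 to 11.65. Insig2, which holds SREBP precursors in the endoplasmic reticulum, rose by 1.08 ± 0.16, and Nr1h3, the liver X receptor alpha, by 0.24 ± 0.06. Prkaa2, the catalytic subunit of AMP-activated kinase, fell by 0.97 on the log2 scale and Mbtps2, the site-2 protease that releases SREBP, by 0.43. Insig1 did not pass (-0.28 ± 0.17). In 1KI against wt 3 regulators were higher and 4 lower in all. Mlxipl was also higher there, by 1.32 ± 0.13, and Prkaa2 also lower (-0.36 ± 0.09). Srebf2 was up by 0.52 ± 0.08 in 1KI and by 0.42 ± 0.09 in 3bKI. Mid1ip1, the partner of Thrsp, was at -0.58 ± 0.10 in 1KI and did not pass in 3bKI (0.13 ± 0.13). These shifts stand beside the same control level and integrity differences as above, and their part in them was not tested.

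Lists around the pathway also had calls in both directions, beside the same shares of all genes. In 3bKI against wt, substrate and NADPH supply had 2 of 10 genes higher and 3 lower (Tkt -0.68 ± 0.07, Idh1 -0.30 ± 0.05, Cs 0.50 ± 0.09). Elongation and desaturation had 1 of 13 higher, Tecr (0.35 ± 0.07), and 5 lower. Among the lower were the delta-6 desaturase Fads2 (-0.72 ± 0.12), Elovl2 (-0.60 ± 0.10), Hacd3 (-0.56 ± 0.06) and the delta-5 desaturase Fads1 (-0.23 ± 0.08). Elovl5 and Scd2 did not pass. Glycerolipid and lipid droplet genes had 3 of 18 higher and 3 lower. Agpat2 was at 0.49 ± 0.09 and Cideb at 0.31 ± 0.07, while Gpam, the first enzyme of triglyceride synthesis, was at -0.42 ± 0.09 and Acsl4 at -1.03 ± 0.15. Malonyl-CoA use and mitochondrial fatty acid synthesis had 2 of 8 higher and 3 lower, with Mlycd, which destroys malonyl-CoA, at 0.40 ± 0.06 and Cpt1a, which malonyl-CoA inhibits, at -0.46 ± 0.08. In 1KI against wt, where 10.2% of all genes were higher and 17.5% lower, these 4 lists had 1, 2, 4 and 2 genes higher and 1, 3, 1 and 1 lower. In 1KI against 3aKO (11.9% of all genes higher, 19.0% lower) the counts were 1, 2, 6 and 3 higher and 1, 3, 1 and 2 lower, with 3 regulators higher and 5 lower. In 3bKI against 3aKO (16.5% higher, 17.7% lower) they were 2, 2, 4 and 4 higher and 3, 4, 4 and 3 lower, with 6 regulators higher and 6 lower. In 3aKO against wt limma called 0 genes of all 5 lists, with 2, 1, 0, 1 and 1 at an unadjusted p under 0.05.

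Clock genes were measured beside Thrsp, whose transcript varies with feeding. Of 15 clock genes 3 were higher and 7 lower in 3bKI than in wt, with a median change of -0.67; over all genes 13.4% were higher and 15.9% lower, with a median of 0.00. Dbp, a transcription factor with a strong daily rhythm in liver, read 6.97, 11.68, 6.56, 11.49 and 9.73 in 3bKI replicates 1 to 5 and 10.44 to 12.35 in wt. Per3, a period gene, read 6.03, 8.59, 6.06, 8.91 and 7.49 in 3bKI and 8.97 to 9.75 in wt. The 2 arrays lowest for both genes, replicates 1 and 3, are also the 2 lowest for Thrsp and the 2 without Y-linked signal. In the other 3 arrays Thrsp (13.04 to 13.75) and Per3 (7.49 to 8.91) were also below every wt array. So was Tef, another gene of the clock list, at 10.36 to 11.15 there and 11.30 to 11.74 in wt. Dbp in these arrays read 11.68 and 11.49, inside its wt range, and 9.73, below it. The part of the clock genes in the Thrsp result was not tested.

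Among the 9096 genes above the median signal, by likeness over the 32 arrays of normalization 1 after each genotype's mean was taken off, Usp2 had the pattern closest to Thrsp, with Pearson's r of 0.92, ahead of Bnip3 at 0.85 and Wee1 at 0.82. These values describe arrays that share a normalization. Within genotypes Usp2 gave 0.57 in wt, 0.93 in 3aKO and 0.95 in 1KI, while Wee1 gave -0.39, 0.53 and 0.95. In 1KI replicate 1 Thrsp was lowest (12.60) and so was Usp2 (6.87), whereas Dbp was at 10.73, inside its wt range. Per3 (8.58), Tef of the clock list (10.68) and Wee1 (7.29) were also lowest there among 1KI arrays and below every wt array. Of the 15 clock genes 4 were higher and 2 lower in 1KI than in wt, beside 10.2% and 17.5% of all genes. The part of the clock genes in the 1KI Thrsp values was not tested. Dbp was lower in 1KI than in wt (-0.88 ± 0.28), with 9.25 to 12.65 in 1KI and 10.49 to 12.34 in wt. Usp2 was also lower in 3bKI than in wt (-1.73 ± 0.24).

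**Figure D4:**
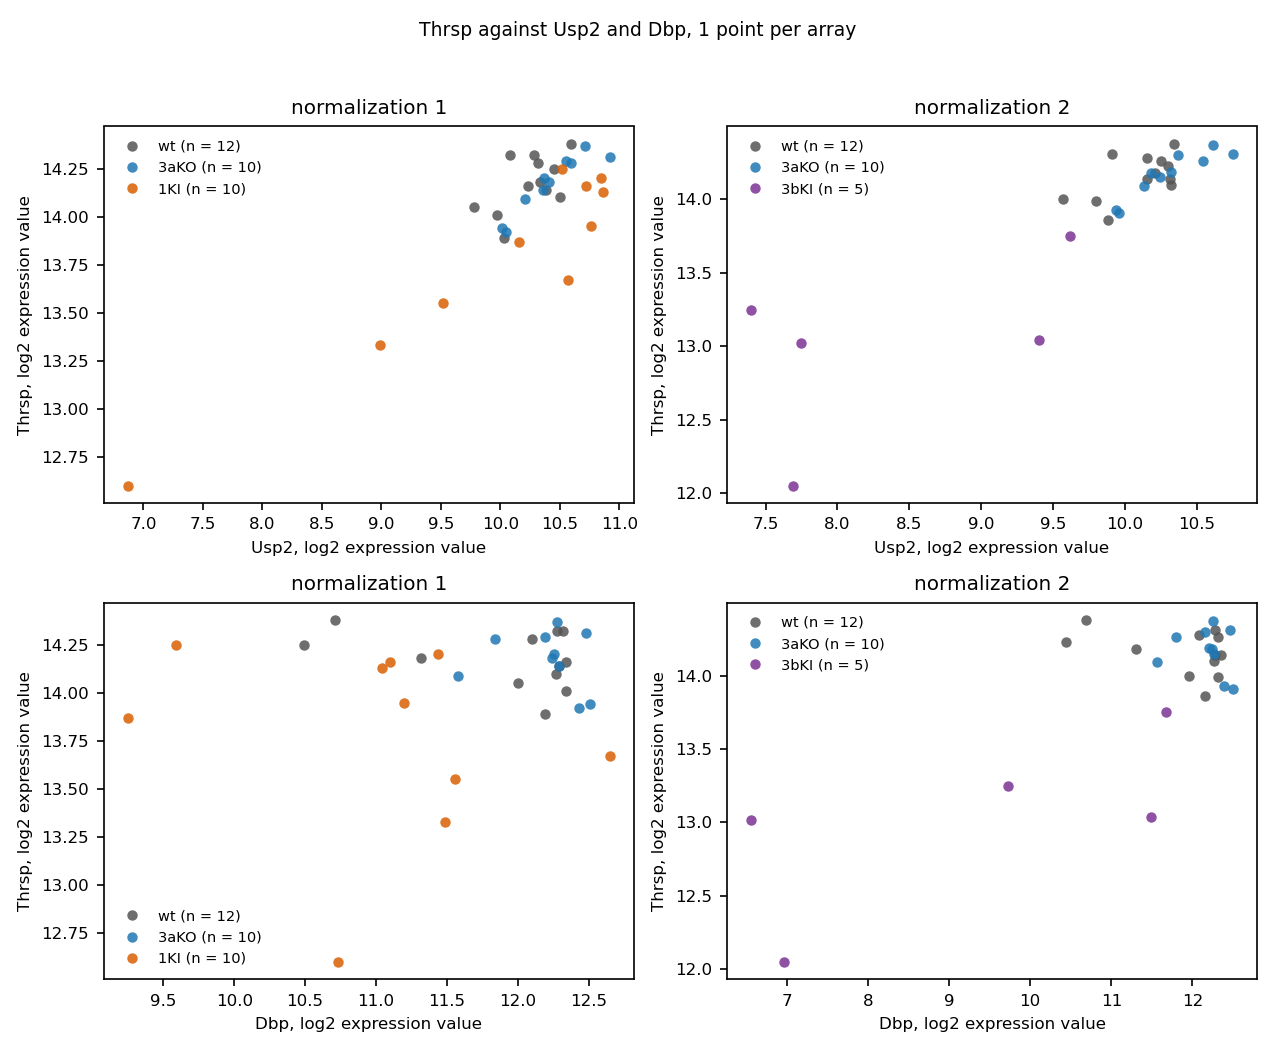
log2 expression value of Thrsp (vertical axis) against Usp2 (top) and Dbp (bottom), 1 point per array, in normalization 1 (left) and 2 (right). In 1KI, replicate 1 is lowest for both Thrsp (12.60) and Usp2 (6.87), and the 3bKI arrays spread from 6.56 to 11.68 in Dbp.

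For the other members the closest patterns among the same genes and arrays were Engase for Srebf1 (r = 0.72), Sqle for Fasn (0.72), Prxl2a for Acaca (0.69) and for Scd1 (0.72), Slc43a1 for Acacb (0.83), Gpam for Acly (0.77), Aacs for Elovl6 (0.79), Cfap20 for Me1 (0.85) and Cyp2b13 for Pnpla3 (0.72). Sqle encodes squalene epoxidase of cholesterol synthesis and Aacs acetoacetyl-CoA synthetase. The highest of these values, 0.85, is below that of Usp2 with Thrsp.

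Whether the enzymes follow Srebf1 or Fasn from liver to liver was asked within each genotype of normalization 1, with 51 pairs in the family. Srebf1 passed the permutation test with none of the other 9 genes in any genotype, with r between -0.53 and 0.38. These r were unstable. Without the 2 arrays farthest from the Srebf1 median they ran from -0.85 (Scd1 in 1KI) to 0.66 (Pnpla3 in wt). In 3aKO, Fasn rose with Acaca (r = 0.92, rho = 0.96, permutation p = 5.6e-04, adjusted p = 0.0125, r = 0.86 without the 2 arrays farthest from the Fasn median, n = 10) and with Elovl6 (r = 0.89, rho = 0.93, permutation p = 8.5e-04, adjusted p = 0.0125, r = 0.82 without 2). All 10 3aKO arrays have the lower hybridization level. In 1KI none of the 17 pairs passed, and the highest was Fasn with Acacb (r = 0.77, rho = 0.81, permutation test, adjusted p = 0.064, n = 10).

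In wt, Fasn rose with Pnpla3 (r = 0.89, rho = 0.94, permutation p = 0.00016, adjusted p = 0.00816, r = 0.85 without the 2 farthest arrays, n = 12) and with Acacb (r = 0.84, rho = 0.85, permutation p = 0.00098, adjusted p = 0.0125, r = 0.93 without 2). With Thrsp only the rank correlation passed (rho = 0.78, permutation test, adjusted p = 0.038; r = 0.70, adjusted p = 0.0649). The levels of Fasn and Pnpla3 in wt also split by Y-linked signal. Pnpla3 lay between 7.52 and 8.03 in the 7 wt arrays with the signal and between 8.57 and 8.98 in the 5 without it. For Fasn the ranges were 11.29 to 11.88 and 11.89 to 12.44, without overlap but next to each other. Acacb met at 1 value, with 9.32 to 10.08 against 10.08 to 10.64, and Acly overlapped slightly, with 11.52 to 11.99 against 11.95 to 12.48. The ranges of the other 6 genes overlapped. The share of all genes whose wt ranges separate in this way was not counted, so the split is only described. In 3aKO and 1KI the ranges overlapped for each of the 10 members: Pnpla3 had medians of 7.40 with and 8.01 without the signal in 3aKO, and 7.78 and 8.23 in 1KI, and Fasn 11.55 and 11.78 in 3aKO and 11.81 and 11.74 in 1KI. The 2 wt arrays of the higher control level both carried Y-linked signal. Whether the split differs between genotypes was not tested, and the signal is a measurement and not a label. Taking the sex index itself, a continuous value, as a covariate left the Pnpla3 change in 3aKO at -0.61 (adjusted p = 0.185).

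**Figure D5:**
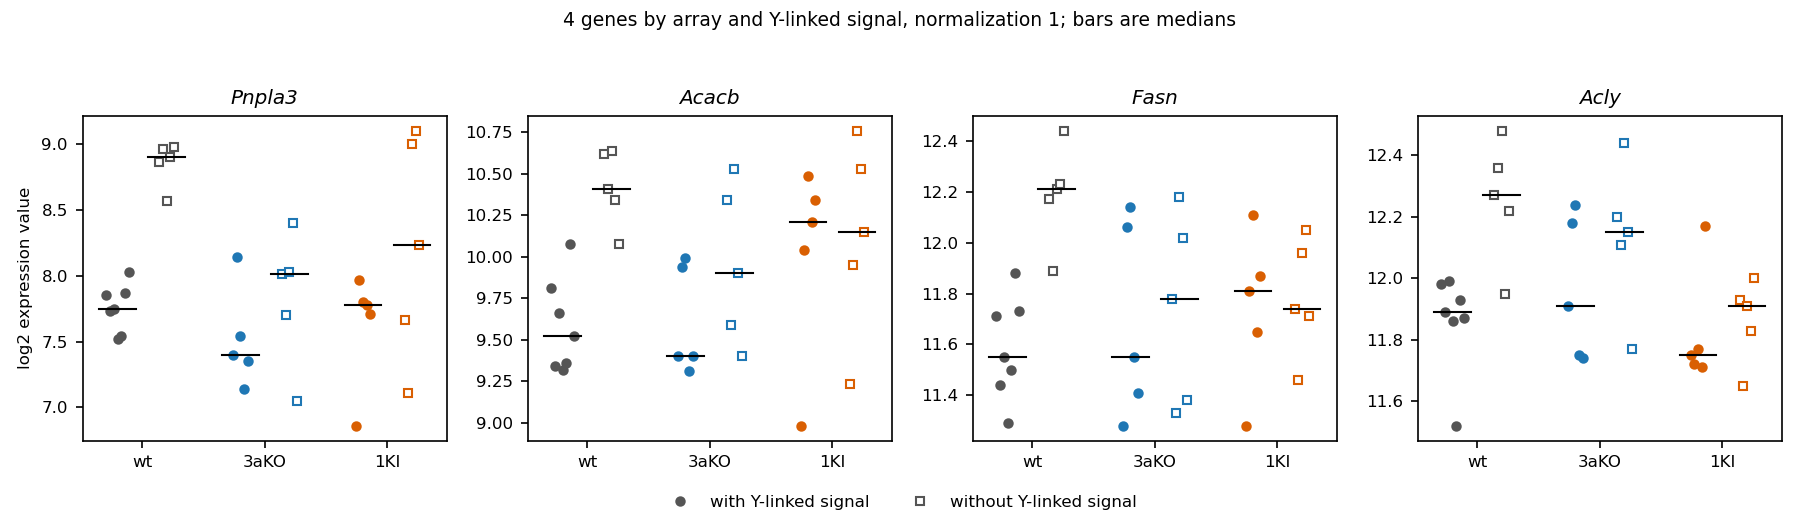
log2 expression value (vertical axis) of Pnpla3, Acacb, Fasn and Acly in normalization 1, with filled circles for arrays with Y-linked signal, open squares for arrays without it, and lines at medians. The wt symbols separate for Pnpla3 (highest 8.03 against lowest 8.57) and overlap in 3aKO and 1KI.

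Within the 7 wt arrays with Y-linked signal, Fasn had r of 0.93 with Me1, 0.86 with Acacb, 0.86 with Acaca, 0.81 with Pnpla3, 0.80 with Thrsp and 0.76 with Elovl6, in 1 family of 17 pairs. None passed after adjustment, and the smallest exact permutation p was 0.00357 for Me1 (adjusted p = 0.0607, rho = 0.89, r = 0.73 without 2 arrays). Fasn with Me1 had r of -0.28 over all 12 wt arrays. With 7 arrays the values within the signal are a description. The 5 wt arrays without the signal are too few for an r.

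Cells other than hepatocytes could add lipogenic transcripts, adipocytes above all. Of 8 adipocyte markers 6 were measured, and 0 were called by limma in any of the 5 comparisons, with at most 1 at an unadjusted p under 0.05. Their summed level ran from 10.4 to 11.9 in wt, 11.1 to 12.1 in 3aKO, 10.4 to 11.9 in 1KI and 11.1 to 12.3 in 3bKI. Signals were summed on the linear scale, so Lpl, the brightest, weighs most in this sum. Lpl averaged 10.70 in wt in normalization 1, and Fabp4, the next, 8.25. Adipoq averaged 3.51 in 3bKI and 3.60 in wt. In 3bKI against wt, with 13.4% of all genes higher and 15.9% lower, the markers called higher were 1 of 8 for macrophages, 1 of 7 for endothelium, 1 of 7 for stellate cells, 2 of 5 for cholangiocytes, 2 of 7 for lymphocytes, 1 of 4 for erythroid cells, 0 of 4 for pancreatic acini and 1 of 8 for hepatocytes, and 2 of the 7 stellate markers were lower. In the same order the counts in 1KI against wt were 0, 0, 1, 0, 0, 0, 0 and 2 higher and 0, 1, 1, 1, 1, 0, 1 and 0 lower. In 1KI against 3aKO they were 0, 1, 1, 2, 0, 1, 1 and 2 higher and 4, 1, 1, 1, 2, 0, 1 and 0 lower, and in 3bKI against 3aKO 0, 3, 1, 3, 1, 1, 0 and 1 higher and 1, 0, 2, 0, 0, 0, 0 and 1 lower. In 3aKO against wt limma called 0 markers of these 8 lists, with 1, 0, 0, 1, 1, 1, 1 and 0 at an unadjusted p under 0.05. Fewer cells of a type and less RNA per cell cannot be told apart in these bulk livers. Of 9 measured genes of the fed and fasted state 2 were higher and 3 lower in 3bKI, with Pdk4 up by 1.12 ± 0.29 and Pck1 at -0.45 ± 0.09. The same list had 2 higher and 0 lower in 1KI against wt, beside 10.2% and 17.5% of all genes. In 3aKO against wt it had 1 higher, Ppargc1a (1.12 ± 0.16), and 0 lower, beside 0.110% and 0.0660%. In 1KI against 3aKO 5 were higher and 1 lower (11.9% and 19.0% of all genes), with a median change of 0.54. In 3bKI against 3aKO 3 were higher and 2 lower (16.5% and 17.7%). The part of feeding in the results for the members was not tested.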

How the data were processed

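Livers of 4-week-old mice were measured on arrays of 45101 probe sets from 5 µg of total RNA, per the labels. The deposited table holds log2 expression values, normalized by the authors in 2 sets of 32 and 27 arrays; the sources used here name neither method nor software, and the log base was read from the values, which run from 2.13 to 15.06. No detection calls were used, and the number of arrays limits the precision.

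Of the probe sets, 34945 carried 1 gene symbol in the platform annotation, 932 several and 9160 none, and 64 were controls. For each of 18193 genes the probe set of the highest mean over arrays was taken. The tests came from limma 3.58.1 (R 4.3.3), fitted over all arrays of a normalization (lmFit, eBayes), with Benjamini-Hochberg adjustment within a comparison at 0.05; all 45101 probe sets were fitted likewise. The fit was tested on simulated data first. Correlations used 100000 permutations (scipy 1.17.1). Arrays with the higher or lower hybridization control level and Y-linked signal were told apart from the values.

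Named were all members, up to 4 called genes per list with the smallest p, Mlxipl, Nr1h3, Insig1, Scd2, Elovl5, Fads1, Fads2 and Dbp, and, among the 9096 genes above the median signal, those with the highest r to a member (3 each). E2f1, E2f3, Adipoq and the arrays' Per3, Tef, Wee1, Usp2 and Dbp values were added after values were seen. The members and lists were chosen with earlier results of these data known. Some listed genes, such as G6pdx and Acsl1, were not analysed here.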

Additional observations from a re-analysis of the deposited data

Results flagged for a closer look

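In 6 of 69 groups of arrays tested, 1 array stood apart from the rest of its group by Dixon's criterion, which chance meets in about 1 group of 20. Of these, 4 lie in 1KI replicate 6, the array with a 3′ minus 5′ difference of 1.75. Its Acly probe set 1425326_at read 7.99, with the nearest array at 9.65, and Acly 1439445_x_at read 2.78, with the nearest at 3.09. In the other direction, Acly 1446315_at read 5.84 there and Thrsp 1444166_at read 9.24, against nearest values of 5.48 and 8.26. The part of RNA integrity in these values was not tested. Acly 1446315_at also stood apart at 5.53 in 3bKI replicate 2, where the other 4 arrays lay between 5.26 and 5.30. Me1 1416632_at read 11.06 in 3aKO replicate 3, above 10.71 in the next array. None of these is the main probe set of its gene.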

How the results depend on the processing

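Thrsp in 3bKI was lower under each alternative run, by -1.32 to -0.82 against wt and -1.33 to -0.74 against 3aKO, but missed the threshold with RNA integrity as a covariate in both and, against wt, within 1 control level (-0.98, 2 wt arrays). Counts of members called moved as follows, and the cause was not tested. In 3aKO against wt the 1 lower became 0 with the mean of probe sets, equal array medians, the control level as a block (also with the sex index), within 1 level, the replicate block, normalization 2 and without the 2 wt arrays of the higher level. In 1KI against wt the 2 lower became 1 with only the 2 groups, the mean of probe sets, quantile normalization and without those 2 wt arrays, and 0 with the level blocks and within 1 level. In 1KI against 3aKO the 1 lower became 0 with only the 2 groups and the level blocks, and the 2 higher became 1 with equal medians and the level blocks. In 3bKI against wt the 4 lower became 1 with the mean of probe sets and the level blocks, 0 within 1 level and with the integrity covariate, 3 without _x_at probe sets (Acly lost) and 5 with the replicate block. In 3bKI against 3aKO the 4 lower became 2 with only the 2 groups, 1 with the mean of probe sets and the level blocks 0 with the integrity covariate and 3 with every probe set tested, quantile normalization, array weights or the sex index (Acaca lost in each), without _x_at probe sets (Acly lost) and with the replicate block (Elovl6 lost), and the 1 higher became 2 with the mean and 0 with the level blocks and the integrity covariate. Signs turned for Acaca in 3bKI against 3aKO (0.024 with the mean of probe sets, 0.16 with the integrity covariate), Acly (0.045 with the mean, 0.039 without _x_at probe sets) and Elovl6 (0.32 and, at 1417403_at, 0.37 with the covariate). Leaving out 1 array gave 0 to 1 lower in 3aKO against wt, 1 to 2 lower in 1KI against wt, 1 to 2 higher in 1KI against 3aKO, 0 to 1 higher and 3 to 5 lower in 3bKI against wt, and 1 to 2 higher and 2 to 4 lower in 3bKI against 3aKO. Over all genes, equal array medians moved the split of higher and lower calls from 1850 and 3176 to 1578 and 4321 in 1KI against wt, from 2174 and 3462 to 1731 and 4494 in 1KI against 3aKO, from 2433 and 2885 to 1742 and 3693 in 3bKI against wt, and from 3002 and 3216 to 2006 and 4042 in 3bKI against 3aKO. The level block left 12 and 3, 388 and 394, 215 and 202, 602 and 981, and 435 and 797 in the 5 comparisons, and the integrity covariate 286 and 319 in 3bKI against wt and 59 and 57 against 3aKO. Array weights raised the 20 and 12 of 3aKO against wt to 148 and 159. Over 800 values of main probe sets in 18 alternatives, 61 lost a call with the sign kept, 5 more lost it with the sign turned and 2 gained one, and 39 that were never called turned sign. The replicate numbers were not taken to pair the arrays, since in no comparison did every same-numbered pair correlate above 0.1. Pairs over 0.1 were 6 of 10 in 3aKO against wt, 4 of 10 in 1KI against wt, 7 of 10 in 1KI against 3aKO (median 0.24), 2 of 5 in 3bKI against wt and 1 of 5 in 3bKI against 3aKO, and 1, 3, 5, 0 and 0 arrays correlated best with their own number. In 3aKO and 1KI, replicates 1 to 5 lack and 6 to 10 carry Y-linked signal. With the replicate block Srebf1 in 1KI against wt gave -0.38 and Scd1 in 3aKO against wt -0.43 (adjusted p = 0.0854). The 2 omissions, of wt arrays and of 1KI replicate 6, were chosen after seeing the data.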
